A study of Mus musculus with 105 samples.

Results

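The values described here are ribosome footprints and mRNA of mouse metaphase II (MII) oocytes that carry the genotype Btg4 Het. MII is the stage at which the mature egg waits for fertilization. A ribosome footprint is the stretch of mRNA that a ribosome shields from nuclease, so footprints of a gene count ribosomes on its message. The genes were chosen by one rule: a mean of at least 5 FPKM (sequenced fragments scaled to gene length and library size) over the 2 Het mRNA libraries. The rule kept 5174 of 20756 genes. They were ranked by the log2 ratio of mean footprints in 3 libraries to mean mRNA in 2 libraries, with 1 FPKM added to each. No knockout library entered the rule. Genes were selected on mRNA alone, and mRNA is also the denominator of the ratio that ranks them.

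Het oocytes have 1 altered copy of Btg4, which encodes an adaptor of the CCR4-NOT deadenylase, and are not wild type. The labels give no number of oocytes per library and name no separate animals. The p-values therefore weigh differences against library-to-library spread alone, which may be technical. Females were C57BL/6 mice aged 8 or 5 weeks that received PMSG (5 IU) and hCG (5 IU) to ripen and release oocytes. Other libraries used for comparison were footprints of 20 single MII and 18 single full-grown (FGO) wild-type oocytes, Btg4 KO MII oocytes with the same 2 assays, and poly(A) tail lengths of Het MII, wild-type MII and wild-type FGO, the last labelled SN.

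A fully grown oocyte stops transcription, and the maturing egg then works from stored messages. Which of them are read is set largely by their poly(A) tails: some messages gain a tail and are recruited to ribosomes during meiosis, others are shortened, silenced and removed. The ratio of footprints to mRNA, often called translational efficiency, ranks messages by how many ribosomes they carry per unit of mRNA. In whole-oocyte libraries, fewer cells and less RNA per cell cannot be told apart. FPKM are also relative within a library. Summed over genes they came to 1154520, 965372 and 862865 in the footprint libraries and to 396616 and 435953 in the mRNA libraries, so a log2 ratio of 0 does not mean 1 ribosome per message. Only the order of the genes can be read from the ratio. Calls of more or fewer footprints than mRNA, and overlap of libraries between the assays, hold only on the FPKM scale as deposited.

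The deepest footprint library was number 1. From the smallest steps between low values, the relative depths were 1, 0.509 and 0.389, and 1 read was worth a median of 0.684, 1.34 and 1.76 FPKM per gene. The depth of the mRNA libraries is unknown. Genes at 0 among the 5174 numbered 417, 1225 and 1171 in footprint libraries 1 to 3. All 12 oocyte markers were above 0, with summed levels of 15659 to 25155 FPKM in footprints and 15182 to 18530 FPKM in mRNA. The 26 follicle cell markers summed to 243 to 420 FPKM in footprints and 359 to 442 FPKM in mRNA, and 17 of them were listed at 0 in every footprint library. The 18 blood and immune markers summed to 22.9 to 42.2 FPKM in footprints and 25.9 to 26.0 FPKM in mRNA, with 16 listed at 0 in every footprint library.

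Messages of similar mRNA level had very different footprint levels. The 10th percentile of the log2 ratio was -2.82, the median -0.03 and the 90th percentile 2.17, a 31.8-fold span. Across the 5174 genes, Spearman's rho between mean footprints and mean mRNA was 0.61 (a description across genes, which are not independent replicates). Footprint libraries correlated with each other at 0.755, 0.833 and 0.723, and the mRNA libraries at 0.902. The ratio itself was less repeatable than its parts. Computed from libraries numbered 1 and then from libraries numbered 2, it correlated at 0.608. The highest decile of genes by these ratios shared 261 of 518 genes, which is 50.4% of each list, and the lowest decile shared 170 of 517, or 32.9%.

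Footprints and mRNA were compared gene by gene with limma on log2(FPKM + 1), fitted over 8477 genes, and a gene passed at a Benjamini-Hochberg adjusted p under 0.05. Of the 5174 genes, 582 had more footprints than mRNA (11.2%, against 8.79% of all genes tested) and 543 had fewer (10.5%, against 9.58% of all genes tested). On the FPKM scale as deposited, the libraries of the 2 assays did not overlap in any of these genes. Over all 5174, every footprint library lay above both mRNA libraries in 1376 genes (26.6%, against 23.6% of all genes tested) and below both in 1633 (31.6%, against 25.4% of all genes tested). The remaining 4049 genes did not pass, and 1995 of the 5174 had an unadjusted p under 0.05. These counts lean on the mRNA libraries: without mRNA library 1 they were 76 higher and 249 lower, and without mRNA library 2 they were 45 and 266. Without footprint library 1 they were 354 and 797. With quantile normalization, which forces all libraries to the same distribution, they were 320 and 714, so 30.9% of calls were higher instead of 51.7%. With median scaling 55.6% were higher.

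**Figure D1:**
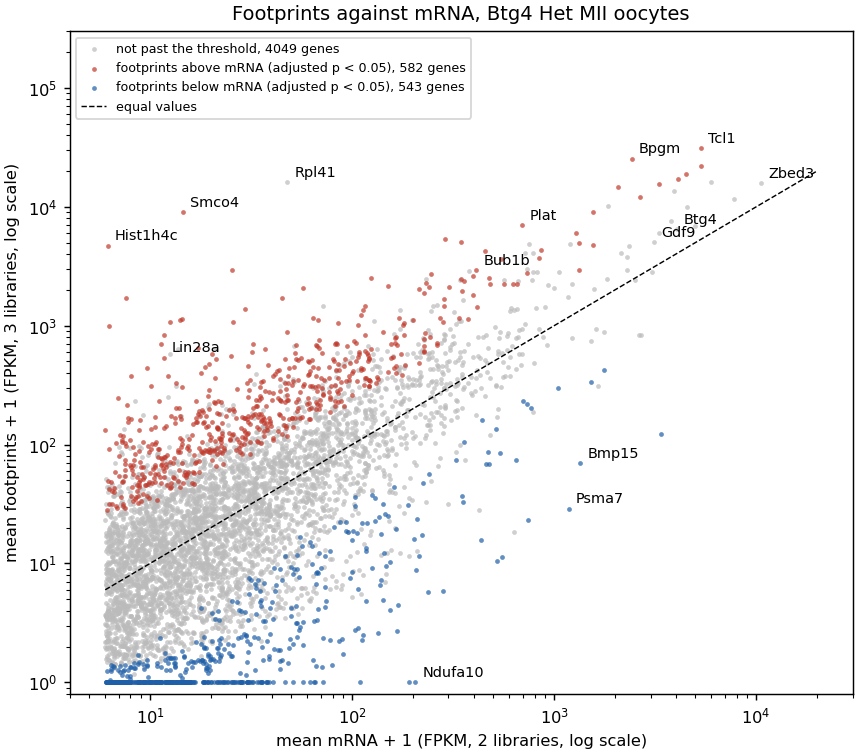
Mean footprints (vertical axis, FPKM + 1, 3 libraries) against mean mRNA (horizontal axis, FPKM + 1, 2 libraries) for 5174 genes of Btg4 Het MII oocytes, both on log scales. Red points are the 582 genes with footprints above mRNA, blue points the 543 below, grey points the 4049 that did not pass limma at an adjusted p of 0.05. The dashed line marks equal values. At any one mRNA level the points spread over several orders of magnitude, and a row of points at the bottom marks genes listed at 0 footprints.

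Summed FPKM were concentrated in a few genes, more so in footprints than in mRNA. The 10 highest genes of each library held 21.7%, 22.8% and 23.6% of the summed footprint FPKM, against 13.0% and 14.6% of the summed mRNA FPKM. Tcl1, a co-activator of the survival kinase Akt, had the highest mean footprints, although Rpl41 lay above it in library 1. It measured 36954, 34884 and 21371 FPKM in the footprint libraries and 4340 and 6278 FPKM in the mRNA libraries, and all 3 footprint values lay above both mRNA values (log2 difference 2.53, SE 0.40, limma adjusted p = 0.0187). Bpgm, which encodes bisphosphoglycerate mutase, an enzyme known best from red blood cells, was second by mean. Its footprints were 28416, 29219 and 18663 FPKM and its mRNA 2745 and 2105 FPKM, again with no overlap (log2 difference 3.37, SE 0.36, adjusted p = 0.0164).

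Other genes among the 10 highest in mean footprints or mean mRNA passed as well. Spin1, a histone reader needed for meiotic progression, had a log2 difference of 2.05 (SE 0.33, adjusted p = 0.0189), Oosp1, an oocyte-secreted protein gene, one of 2.03 (SE 0.35, adjusted p = 0.0218), and Tcl1b1, a relative of Tcl1, one of 2.81 (SE 0.31, adjusted p = 0.0164). E330034G19Rik passed at 2.23 (SE 0.43, adjusted p = 0.0284) but not without footprint library 1. Omt2b passed narrowly at 2.02 (SE 0.49, adjusted p = 0.049) and did not pass when any 1 of the 5 libraries was left out. With quantile normalization Bpgm passed, and Tcl1, Tcl1b1, Spin1, Oosp1, Omt2b and E330034G19Rik did not. When either mRNA library was left out none of these 7 genes passed.

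The most abundant mRNAs were not the most ribosome-rich. Zbed3, a maternal factor that acts with the subcortical maternal complex, led the mRNA list. It had 11380, 25248 and 10822 FPKM in footprints and 11470 and 9595 FPKM in mRNA, and the ranges overlapped. H1foo, the oocyte linker histone, measured 12148, 12353 and 10653 FPKM in footprints and 6931 and 8599 FPKM in mRNA (log2 difference 0.60, SE 0.29, adjusted p = 0.238). Bcl2l10, a Bcl-2 family gene of the oocyte, had a log2 difference of 1.41 (SE 0.36, adjusted p = 0.0554), just short of the threshold. Pttg1, which encodes securin, overlapped between assays at 6317, 11049 and 3299 FPKM in footprints and 3212 and 6794 FPKM in mRNA. Rfpl4, another oocyte gene, had a log2 difference of 1.04 (SE 0.46, adjusted p = 0.206).

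Btg4 itself was among the 10 most abundant mRNAs. It measured 7009, 6346 and 6134 FPKM in footprints and 3293 and 4774 FPKM in mRNA. The libraries did not overlap, but the log2 difference of 0.71 (SE 0.30, adjusted p = 0.19) did not pass. Its log2 ratio was 0.69.

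Among genes past the limma threshold, histone genes took 6 of the 12 highest ratios. Hist1h4c, a histone H4 gene, was first, with 5626, 4108 and 4391 FPKM in footprints and 5.31 and 5.05 FPKM in mRNA. Every footprint value lay far above both mRNA values (log2 difference 9.56, SE 0.28, adjusted p = 0.00335). Hist1h1a, a linker histone, had 3105, 2877 and 2847 FPKM in footprints and 29.8 and 19.3 FPKM in mRNA (log2 difference 6.88, SE 0.30, adjusted p = 0.00538). Hist1h2bk, Hist1h4d, Hist1h2aa and H2afx were also among these 12, with log2 differences of 7.28, 6.46, 5.64 and 6.41.

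Replication-dependent histone messages end in a stem-loop in place of a poly(A) tail, and the mRNA libraries measured polyA RNA per the labels. Footprints do not depend on a tail. Of 66 histone genes of the clusters named Hist1h to Hist4h, 9 reached the mRNA minimum. Their median log2 ratio was 5.55, beside -0.03 over all 5174 genes, and 6 of the 9 had more footprints than mRNA while 0 had fewer. Hist1h2bc and Hist2h3c2, which did not pass, were listed at 0 in footprint library 2, and Hist2h3b, named after its values were seen, was at 47.8 FPKM there against 952 and 899 FPKM in libraries 1 and 3. Without that library all 9 passed, and 4 passed when either mRNA library was left out. The other 57 genes of the class lay under the mRNA minimum, and 55 of them had mean footprints of 50 FPKM or more, up to 4409 FPKM. How much of the histone ratio comes from the selection of tailed mRNA cannot be told apart from ribosome load in these libraries. Copies of one histone are nearly identical, and which copy a read was given to is uncertain. Slbp, which encodes the protein that binds the stem-loop and was named after its values were seen, was itself ribosome-rich. Its footprints were 13487, 13940 and 8685 FPKM and its mRNA 1994 and 3311 FPKM (log2 ratio 2.18, SE of the log2 difference 0.40, adjusted p = 0.0239). It did not pass without footprint library 1, without mRNA library 1, without mRNA library 2 or with quantile normalization (adjusted p of 0.053 to 0.269).

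Outside the histones, Smco4, which encodes a small membrane protein, stood second of all genes. It measured 9705, 9536 and 7682 FPKM in footprints and 19.8 and 7.32 FPKM in mRNA, with a log2 difference of 9.40 (SE 0.46, adjusted p = 0.00629). Rpl41, next by ratio at 8.40, did not pass and is described with the ribosomal proteins. Dynll2, a dynein light chain gene, came after it with 1959, 2223 and 912 FPKM in footprints and 5.65 and 7.55 FPKM in mRNA (log2 difference 7.72, SE 0.48, adjusted p = 0.00904). In Smco4 and Dynll2 all footprint libraries were far above both mRNA libraries. S100a14, a small calcium-binding protein gene, had 355, 1987 and 1014 FPKM in footprints and 16.5 and 9.82 FPKM in mRNA, and so varied widely between footprint libraries. Max, the partner of Myc, had a log2 difference of 6.09, Zrsr2, a splicing factor of the minor spliceosome, one of 5.74, and Trappc3, a subunit of a vesicle tethering complex, one of 5.57. Of the 12 highest genes past the threshold, 9 passed without mRNA library 1 and 8 without mRNA library 2. Hist1h4d, S100a14 and Zrsr2 were lost in both cases and Max without mRNA library 2. All 12 passed with quantile normalization.

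Several genes at this end had a high value per read, as short genes do. In library 1 a single read was worth 62.2 FPKM for Smco4 and 16.9 FPKM for Dynll2. Among genes whose read value could be recovered, 26.3% of those in the highest decile had a read worth over 5 FPKM, against 5.44% in the lowest decile and 2.88% to 10.9% in the 8 deciles between. Across 3311 genes the log2 ratio and the value of 1 read had a rho of 0.12. The part of gene length in the high ratios was not tested.

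**Figure D2:**
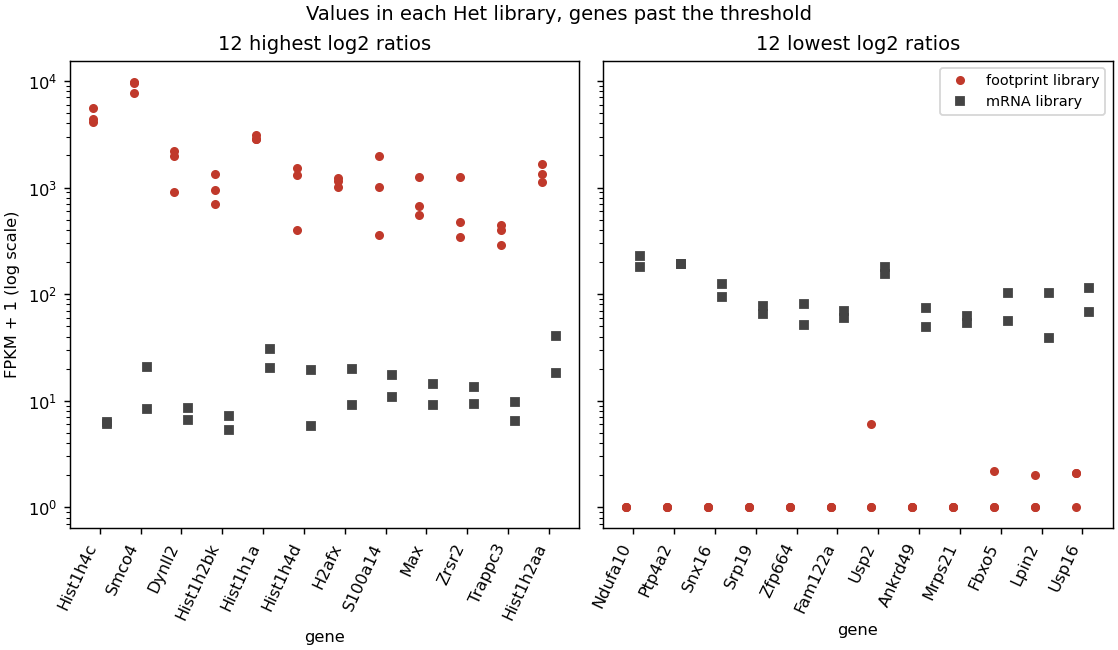
Values in each Het library (FPKM + 1, log scale) of the 12 genes with the highest and the 12 with the lowest log2 ratio among those past the limma threshold. Red circles are the 3 footprint libraries and dark squares the 2 mRNA libraries of a gene. In the left panel every circle lies above both squares, and in the right panel most circles sit at 0 FPKM while mRNA lies between 37.8 and 229 FPKM.

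At the other end stood abundant messages on which few or no ribosomes were found. Among genes past the threshold, Ndufa10, a subunit of respiratory complex I, had the lowest ratio. It was listed at 0 in all 3 footprint libraries, beside 180 and 229 FPKM in mRNA (adjusted p = 0.00904). Ptp4a2, a tyrosine phosphatase gene, was listed at 0 in all 3 footprint libraries, beside 189 and 192 FPKM in mRNA (adjusted p = 0.00904). Snx16, an endosomal sorting nexin gene, was also listed at 0, beside 93.9 and 122 FPKM. Srp19, a protein of the signal recognition particle, Zfp664, Fam122a, Ankrd49 and the mitochondrial ribosomal protein gene Mrps21 were likewise listed at 0 in every footprint library, with mRNA between 48.5 and 79.5 FPKM. No fold is given for a gene whose footprints are all listed at 0. The ratio of such a gene depends on its mRNA alone, so the order among these genes is that of their mRNA.

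The 4 remaining genes of the lowest 12 past the threshold had 1 or 2 low footprint values. Fbxo5, which encodes Emi1, an inhibitor of the anaphase-promoting complex, had 1.19, 0 and 0 FPKM in footprints and 101 and 55.4 FPKM in mRNA (log2 difference -5.87, SE 0.68, adjusted p = 0.0164). The ubiquitin protease genes Usp2 and Usp16 had log2 differences of -6.52 and -5.74. Lpin2, a phosphatidate phosphatase gene, had 0, 0.999 and 0 FPKM in footprints and 101 and 37.8 FPKM in mRNA. With either mRNA library left out, the fit takes the spread of a gene from the footprint libraries alone. Fbxo5, Usp2, Usp16 and Lpin2 did not pass in such fits. For the 8 genes listed at 0 that spread is 0, so such fits say little about them.

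Low footprints also occurred in far more abundant messages. Psma7, a proteasome subunit gene, measured 29.5, 14.9 and 38.9 FPKM in footprints and 1154 and 1203 FPKM in mRNA (log2 difference -5.46, SE 0.47, adjusted p = 0.0164). Bmp15, the growth factor with which the oocyte signals to follicle cells, had 81.4, 40.6 and 83.1 FPKM in footprints and 1361 and 1323 FPKM in mRNA (log2 difference -4.34, SE 0.42, adjusted p = 0.0164). Its partner Gdf9 stood far from it, at 4669, 8337 and 2194 FPKM in footprints and 3150 and 3094 FPKM in mRNA, values that overlapped. Elobl, an elongin B-like gene named after its values were seen, had 116, 158 and 92.0 FPKM in footprints and 2321 and 4433 FPKM in mRNA, where it ranked 13 (log2 difference -4.74, SE 0.42, adjusted p = 0.0164). Elobl passed whichever library was left out. Bmp15 and Psma7 did not pass when either mRNA library was left out.

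Messages under 1 FPKM in all 3 footprint libraries, called silent here, numbered 299 of 5174 (5.78%, against 7.33% of all genes tested). Of these, 255 were listed at 0 in all 3, and 293 passed limma as lower. The genes were chosen on the same values that limma tests, so these calls are no separate support. The median mRNA of the 299 genes was 10.3 FPKM, 58 had at least 20 FPKM and 9 at least 50 FPKM. With the value of 1 read known for 175 of them, a median of 26.6 reads over the 3 libraries would have been counted at a log2 ratio of 0, and 53 genes would have had over 50 reads. For Ndufa10 that number was 532 and for Ptp4a2 172. The value of a read is itself estimated and can be off by a whole factor.

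An exact 0 in a table of FPKM can also be a failed estimate. Gapdh, the glycolysis enzyme gene that every cell uses and that was named after its values were seen, was among the silent genes, at 0 in all 3 footprint libraries and 43.2 and 26.4 FPKM in mRNA. Gapdh has many processed copies in the mouse genome, and how reads of near-identical copies were assigned is not known here. Of the 299 genes, 294 were above 0 in at least 1 other footprint library: 252 in single MII oocytes, 286 in single FGO and 221 in Btg4 KO oocytes. Without footprint library 1, the deepest, 706 genes counted as silent, and without library 2 or 3, 384 and 378.

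**Figure D3:**
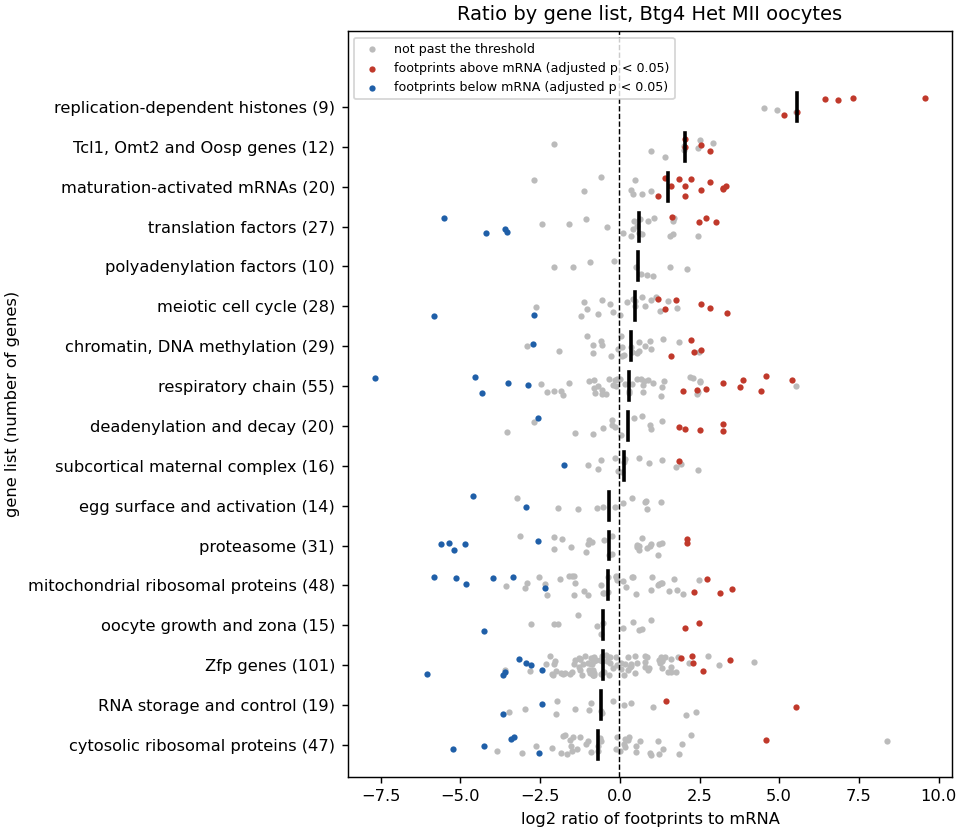
Log2 ratio of footprints to mRNA (horizontal axis) for the members of 17 gene lists, each point a gene; the number of members is in brackets. Red points passed limma as higher in footprints, blue points as lower, grey points did not pass; black bars are list medians and the dashed line is the median of all 5174 genes, -0.03. Histones, Tcl1 and Omt2 genes and maturation-activated mRNAs lie to the right, with medians of 5.55, 2.06 and 1.51.

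Gene groups were then read in the order in which they act on a stored message. Over all 5174 genes 11.2% were higher and 10.5% lower, so calls in both directions are not in themselves a trait of a list. Some lists share genes, and a shared gene is counted in each. Oosp1 is in the maturation-activated, oocyte growth and Tcl1 lists, and Tet3 in the maturation-activated and chromatin lists. Members that passed but lie outside the rule for named genes were named after their values were seen. For these, the number of the 5 single-library leave-outs in which they still passed is given. When an mRNA library is left out, a gene listed at 0 in all footprint libraries has a spread of 0. Lower calls of such genes that remain in the lists then say little. The median limma difference of each list was also read relative to that of all 5174 genes, which moved with the setting. It lay higher under every setting for histones (by 5.63 to 6.88), maturation-activated messages (0.98 to 2.04), the Tcl1 group (0.95 to 2.70), polyadenylation factors (0.59 to 1.15), translation factors (0.51 to 1.139) and chromatin regulators (0.08 to 0.68). It lay lower under every setting for cytosolic ribosomal (-2.03 to -0.67), mitochondrial ribosomal (-1.42 to -0.24), proteasome (-0.77 to -0.24), RNA storage (-0.75 to -0.21) and Zfp genes (-0.77 to -0.05). The decay, oocyte growth, subcortical complex, meiotic, respiratory chain and egg surface lists took both signs. Some settings could not move a list: no filter, a separate variance per assay and a fit that adds the KO libraries. The replicate block repeats the value without footprint library 3.

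The maturation-activated list holds messages known to be recruited to ribosomes during meiosis, and this list was drawn up with earlier results of these data known. All 20 members met the mRNA minimum. Their median log2 ratio was 1.51, beside -0.03 over all genes; 12 had more footprints than mRNA and 0 had fewer. Plat, the tissue plasminogen activator, had 9946, 5952 and 5100 FPKM in footprints and 968 and 424 FPKM in mRNA (log2 difference 3.39, SE 0.51, adjusted p = 0.0177). Pan2, a deadenylase subunit, had 342, 437 and 227 FPKM in footprints and 48.7 and 20.1 FPKM in mRNA (log2 difference 3.33, SE 0.52, adjusted p = 0.0187). Cnot7 and Cnot8, the catalytic deadenylase subunits that Btg4 and Tob proteins contact, were both higher. Cnot7 had 2826, 1730 and 2144 FPKM in footprints and 639 and 606 FPKM in mRNA (log2 difference 1.81, SE 0.31), and Cnot8 a log2 difference of 2.02 (SE 0.38). They passed in 2 and 3 of the 5 leave-outs. Tpx2, a spindle assembly factor, had 462, 632 and 253 FPKM in footprints and 75.4 and 75.7 FPKM in mRNA (log2 difference 2.46, SE 0.46, 2 of 5). Orc6, a subunit of the origin recognition complex, passed at 1.58 (SE 0.37, 1 of 5), and Tet3, the dioxygenase that oxidizes methylcytosine, at 2.23 (SE 0.43, 2 of 5). The lowest members were the decapping enzyme gene Dcp2, with 3.55, 0 and 0 FPKM in footprints and 12.7 and 13.6 FPKM in mRNA, and Il7, at 0 in 1 footprint library. Neither passed. Plat and Pan2 did not pass when either mRNA library was left out. When libraries were left out in turn, 1 to 10 members passed as higher: 1 without mRNA library 1, 1 without mRNA library 2 and 7 without footprint library 3. With quantile normalization 2 passed as higher and 2 as lower, while the list's median limma difference was 0.33 to 1.64 over all settings.

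The machinery that shortens tails and decays messages was mixed. Of 31 listed deadenylation and decay genes 20 met the minimum, with a median of 0.25. Among them 5 were higher in footprints and 1 was lower. The higher genes Cnot7, Cnot8, Dcp1a and Pan2 are also counted in the maturation-activated list. The median limma difference of the decay list was -0.01, against -0.36 over all 5174 genes. Dcp1a, the decapping activator, had 2012, 2226 and 1825 FPKM in footprints and 289 and 138 FPKM in mRNA (log2 difference 3.32, SE 0.40, adjusted p = 0.0164), and passed under every setting tried except the replicate block. Edc4, a scaffold of decapping, was higher as well (log2 difference 2.60, SE 0.52, 1 of 5). The lower gene was Cnot4, the ubiquitin ligase of the CCR4-NOT complex, at 8.31, 4.90 and 10.7 FPKM in footprints and 58.4 and 46.0 FPKM in mRNA (log2 difference -2.62, SE 0.50, 3 of 5). Genes named Cnot thus lay on both sides, with Cnot7 and Cnot8 higher and Cnot4 lower. Tob2, an antiproliferative adaptor of CCR4-NOT, stood lowest at 1.51, 0 and 3.89 FPKM in footprints and 49.2 and 14.2 FPKM in mRNA and did not pass. Leaving out libraries in turn gave 1 to 5 higher and 0 to 2 lower. Of polyadenylation factors, which build the tail, 10 of 16 met the minimum, with a median of 0.58. None passed in either direction (0 of 10). Fip1l1, a subunit of the cleavage and polyadenylation complex, had 152, 384 and 158 FPKM in footprints and 70.0 and 36.9 FPKM in mRNA (adjusted p = 0.0735). Nudt21 and Pcf11, subunits of cleavage factors, stood at the low end with ratios of -2.06 and -1.46. Nudt21 had 2.62, 0 and 0 FPKM in footprints and 4.38 and 9.26 FPKM in mRNA.

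Among 19 RNA storage and translational control genes the median was -0.60, with 2 higher and 2 lower. Lin28a, an RNA-binding protein known for blocking let-7 processing, measured 426, 849 and 335 FPKM in footprints and 14.9 and 6.56 FPKM in mRNA. It had a log2 difference of 5.50 (SE 0.57, adjusted p = 0.0164) and did not pass when either mRNA library was left out. Ybx1, a general mRNA packaging protein, went the other way, at 14.8, 16.2 and 14.1 FPKM in footprints and 190 and 212 FPKM in mRNA. The 3 footprint values lay close together and far below mRNA (log2 difference -3.65, SE 0.32, adjusted p = 0.0164), and Ybx1 passed without any 1 library. Eif4enif1, the 4E-T protein that holds the cap-binding factor in a silent form, was the other lower gene, with 11.2, 17.1 and 24.6 FPKM in footprints and 126 and 74.3 FPKM in mRNA (log2 difference -2.46, SE 0.50, 2 of 5). Lsm14a, a granule protein, was the other higher one (log2 difference 1.44, SE 0.32, 1 of 5). Lsm14b, a component of oocyte RNA granules, and Rbpms2, an RNA-binding protein, stood at log2 ratios of 2.39 and -3.47 and did not pass.

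Oocyte-specific genes of the Tcl1, Omt2 and Oosp families, with Bcl2l10, had a median ratio of 2.06 over 12 genes, with 4 higher and 0 lower. Tcl1b5 had 4742, 473 and 3505 FPKM in footprints, an uneven set that did not pass against 441 and 316 FPKM in mRNA. Oosp2 stood apart at 62.4, 40.9 and 10.7 FPKM in footprints and 143 and 182 FPKM in mRNA, which did not pass either. Several of these genes are similar copies, so their single values are uncertain. Without footprint library 2, 8 of the 12 were higher, when either mRNA library was left out 0, and with quantile normalization 0 were higher and 1 lower. Relative to the median of all 5174 genes the list stood 0.95 to 2.70 higher in the limma difference under all settings.

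Meiotic cell cycle genes passed in both directions. Of 28 the median was 0.47, with 6 higher and 2 lower. The higher genes Bub1b, Cdc20, Fbxo43 and Tpx2 are also counted in the maturation-activated list. Espl1, which encodes separase, measured 162, 247 and 156 FPKM in footprints and 26.5 and 8.04 FPKM in mRNA (log2 difference 3.55, SE 0.58, adjusted p = 0.0196). Bub1b, the spindle checkpoint kinase BubR1, had 3017, 3761 and 1973 FPKM in footprints and 509 and 311 FPKM in mRNA (log2 difference 2.82, SE 0.42, adjusted p = 0.0174). The lower genes were Fbxo5, described above, and Ccnb3, a cyclin of meiosis, at 1.58, 3.10 and 2.44 FPKM in footprints and 24.0 and 18.1 FPKM in mRNA (log2 difference -2.72, SE 0.55, adjusted p = 0.0323). Fbxo43 encodes Emi2, the relative of Emi1 that keeps the anaphase-promoting complex off at MII. It lay opposite to Fbxo5, with 209, 250 and 218 FPKM in footprints and 105 and 63.9 FPKM in mRNA (log2 difference 1.45, SE 0.34, adjusted p = 0.0446), a call that held in 0 of the 5 leave-outs. Cdc20, the activator of that complex, had 547, 451 and 456 FPKM in footprints and 236 and 191 FPKM in mRNA (log2 difference 1.18, SE 0.27, adjusted p = 0.0432, 0 of 5). Cdca8, which encodes borealin of the chromosomal passenger complex, was higher at 1.75 (SE 0.38, 1 of 5), and Tpx2 is described above. Ccnb3 did not pass without footprint library 3 or when either mRNA library was left out, Bub1b not when either mRNA library was left out or with quantile normalization, and Espl1 not without mRNA library 2. Leaving out libraries in turn gave 0 to 4 higher and 0 to 3 lower. Mos, the kinase that holds the egg at MII, had 1203, 783 and 791 FPKM in footprints and 771 and 562 FPKM in mRNA. Its footprint values lay just above both mRNA values, and its log2 difference of 0.46 did not pass.

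Oocyte growth and zona genes (15 of 17 at the minimum) had a median of -0.52, with 2 higher and 1 lower; the other 12 did not pass, a share of the list near that over all 5174 genes. The zona pellucida gene Zp3 had 23.5, 4.62 and 36.3 FPKM in footprints and 66.1 and 103 FPKM in mRNA (adjusted p = 0.164). Zp1 and Zp2 had ratios of -0.71 and -0.52 and did not pass, and the Zp2 libraries overlapped between assays. Uchl1, a ubiquitin hydrolase of oocytes and neurons, was higher, at 1582, 2656 and 1586 FPKM in footprints and 455 and 241 FPKM in mRNA (log2 ratio 2.47, SE of the log2 difference 0.43, adjusted p = 0.0218). Lhx8, a transcription factor of early follicles, had 5.60, 2.75 and 0 FPKM in footprints and 34.4 and 15.3 FPKM in mRNA and did not pass. Uchl1 did not pass without footprint library 3 or when either mRNA library was left out. Over the list, 0 to 2 were higher and 0 to 3 lower with libraries left out in turn.

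The subcortical maternal complex and maternal effect list (16 genes) had a median of 0.14, with 1 higher and 1 lower. The higher one was Trim28, a corepressor that protects imprints (log2 difference 1.91, SE 0.40, adjusted p = 0.0346, 0 of 5). The lower one was Ooep, a core member, at 312, 213 and 134 FPKM in footprints and 815 and 653 FPKM in mRNA. Its log2 difference of -1.81 (SE 0.44, adjusted p = 0.0489) did not pass without footprint library 2, footprint library 3 or when either mRNA library was left out. Nlrp5 and Dppa3, maternal effect genes, had log2 ratios of 0.12 and -0.05 with overlapping libraries. Dppa5a and Khdc1a each had a 0 in footprint library 2 and did not pass. Egg surface and activation genes (14 of 24 at the minimum) had a median of -0.34, with 0 higher and 2 lower. Camk2g, the kinase that answers the calcium signal of fertilization, had 0, 3.86 and 7.57 FPKM in footprints and 148 and 84.6 FPKM in mRNA (log2 difference -5.03, SE 1.04, adjusted p = 0.034). It did not pass when either mRNA library was left out. Itpr2, a calcium release channel, had 1.78, 0.952 and 0.83 FPKM in footprints and 14.7 and 16.9 FPKM in mRNA (log2 difference -2.97, SE 0.55, 3 of 5). The zinc transporter genes Slc39a10 and Slc39a6 stood at ratios of 0.85 and -3.22, and Astl, the protease that hardens the zona, at 1.28. These 3 did not pass.

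Chromatin and DNA methylation regulators (29 of 36) had a median of 0.36, with 4 higher and 1 lower. AU022751, the inhibitor of the Polycomb complex known as Ezhip, measured 8631, 12050 and 6278 FPKM in footprints and 2076 and 1025 FPKM in mRNA (log2 difference 2.57, SE 0.47, adjusted p = 0.0245). It did not pass without footprint library 1 or when either mRNA library was left out, nor with quantile normalization. Dnmt1, the maintenance DNA methyltransferase, was higher with 617, 438 and 208 FPKM in footprints and 92.9 and 71.9 FPKM in mRNA (log2 difference 2.22, SE 0.53, 1 of 5). H3f3b, which encodes histone H3.3 from a polyadenylated message, passed at 1.67 (SE 0.35, 0 of 5), and Tet3 is described above. Ehmt1, a histone H3 lysine methyltransferase, had 0.713, 0.701 and 0.917 FPKM in footprints and 13.7 and 8.00 FPKM in mRNA. Its log2 difference of -2.69 (SE 0.53, adjusted p = 0.0297) did not pass without footprint library 3 or when either mRNA library was left out. With libraries left out in turn, 0 to 2 of the list were higher and 0 to 2 lower. Kdm4a and Dnmt3l, a histone demethylase and a cofactor of DNA methylation, had ratios of 2.47 and -2.90 and did not pass.

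Housekeeping lists spread widely in both directions. Cytosolic ribosomal protein genes (47 of 78 at the minimum) had a median of -0.67, with 1 higher and 5 lower. Rpl13 had 0, 5.73 and 0 FPKM in footprints and 54.5 and 54.5 FPKM in mRNA (log2 difference -4.88, SE 1.05, adjusted p = 0.0364). Rpl4 had 10.7, 7.03 and 6.14 FPKM in footprints and 55.0 and 46.1 FPKM in mRNA (log2 difference -2.55, SE 0.45, 3 of 5), and Rps25 and Rpl35a were listed at 0 in all footprint libraries. Rps15a was the higher one, with 813, 157 and 448 FPKM in footprints and 15.5 and 21.8 FPKM in mRNA (log2 difference 4.32, SE 0.75, adjusted p = 0.0218). Rpl41, whose protein is the smallest of the ribosome, had 47000, 0 and 1427 FPKM in footprints and 32.8 and 60.8 FPKM in mRNA. Its footprint libraries spread so far that it did not pass (adjusted p = 0.694). Without footprint library 1, 11 members were lower, and when either mRNA library was left out 2 were. Rps15a did not pass without footprint library 3, Rpl13 not without library 1 or 3, and neither passed when either mRNA library was left out. Ribosomal protein genes have processed copies, so their values are uncertain.

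Messages of ribosomal proteins usually begin with a run of pyrimidines called the 5′ terminal oligopyrimidine motif, through which their translation is regulated. The 30 bases around the annotated start (10 before it and 20 from it on) are shown for a low and a high member with such a run and for a low and a high member without one. Capitals mark the run, and the letters are RefSeq's for GRCm38.p6.
Fau: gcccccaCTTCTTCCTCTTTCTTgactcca
Rps15a: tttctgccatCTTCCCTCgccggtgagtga
Rpl13: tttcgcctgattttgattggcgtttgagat
Rpl41: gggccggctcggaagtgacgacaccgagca
These lie at chr19:6057937-6057966 (plus strand), chr7:118116128-118116157 (minus strand), chr8:123102340-123102369 (plus strand) and chr10:128549149-128549178 (minus strand). The log2 ratios were -3.86 for Fau and 4.59 for Rps15a, both with a run, and -4.25 for Rpl13 and 8.40 for Rpl41, both without.

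A run was defined as a C followed by at least 4 letters C or T on the sense strand, starting within 5 bases of the annotated start. It occurred in 16 of the 36 ribosomal protein genes that matched a RefSeq start (44.4%), against 21.2% of all 27025 starts and 24.1% of 4233 genes of the ranking. The median log2 ratio was -0.96 in the 16 genes with a run and -0.60 in the others. In the lowest decile of the ranking 21.4% of starts held a run, and in the highest 26.5%. The annotated start may not be the one used in oocytes, and no test was made.

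Nuclear-encoded respiratory chain genes (55 of 76) had a median ratio of 0.29, with 9 higher and 5 lower; the median limma difference was -0.51, against -0.36 over all 5174 genes. Atp5e, the epsilon subunit of ATP synthase, measured 573, 1688 and 982 FPKM in footprints and 20.1 and 29.1 FPKM in mRNA (log2 difference 5.29, SE 0.53, adjusted p = 0.0164). It is a short gene: 1 read was worth 95.4, 188 and 245 FPKM in libraries 1 to 3, so its footprint values rest on few reads. It was above 0 in 6 of 20 single MII oocytes and in 18 of 18 FGO. Atp5e did not pass when either mRNA library was left out. The other 8 higher genes were Atp5j2 (log2 difference 4.52), Ndufa1 (4.55), Cox7b (3.81), Uqcr10 (3.63), Sdhd (3.13), Uqcrh (2.52), Atp5k (2.49) and Ndufc2 (1.99). Ndufa1, an accessory subunit of complex I, measured 918, 625 and 545 FPKM in footprints and 17.0 and 45.9 FPKM in mRNA and passed in 4 of the 5 leave-outs, Ndufc2 in 0. Ndufa6, Ndufs6 and Atp5h were listed at 0 in every footprint library, as was Ndufa10. Subunits of complex I and of ATP synthase thus stood at both ends of the ratio, and the part of gene length in this was not tested. Uqcrc2, a core subunit of complex III, had 6.53, 0 and 16.8 FPKM in footprints and 214 and 198 FPKM in mRNA (log2 difference -5.34, SE 1.28, adjusted p = 0.0489), and did not pass without footprint library 1 or when either mRNA library was left out. Without footprint library 1, 12 members of the respiratory list were lower. When either mRNA library was left out, most or all higher calls were lost. The lower calls that remained were of genes listed at 0 in all 3 footprint libraries, whose spread is 0 in such a fit. With both assays held to a mean of 1 FPKM, 8 were higher and 1 lower. Mitochondrial ribosomal protein genes (48 of 78) had a median of -0.38, with 4 higher and 6 lower, and 15 lower without footprint library 1. Mrps17 and Mrps14 were the highest, at log2 differences of 3.32 and 3.15, and neither passed when either mRNA library was left out; Mrps14 also not without footprint library 1 or 2.

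Proteasome genes (31 of 35) had a median of -0.35, with 2 higher and 5 lower. Psma4 had 1.08, 0 and 0 FPKM in footprints and 70.0 and 60.5 FPKM in mRNA (log2 difference -5.69, SE 0.63, adjusted p = 0.0164), next to Psma7 above. Psmd1, a scaffold of the regulatory particle, had 2.84, 2.79 and 0 FPKM in footprints and 112 and 99.2 FPKM in mRNA (log2 difference -5.45, SE 0.79, 3 of 5), and the lid genes Psmd11 and Psmd12 were lower too (log2 differences of -5.91 and -2.70, 1 of 5 each). Psmd3, a subunit of the regulatory lid, was higher, at 220, 271 and 191 FPKM in footprints and 70.5 and 33.0 FPKM in mRNA (log2 ratio 2.11, SE of the log2 difference 0.43, adjusted p = 0.029). Psmb4, of the catalytic core, was higher too, at a log2 difference of 2.06. When either mRNA library was left out no proteasome gene passed, and Psmd3 and Psmb4 did not pass without footprint library 1 or 3, Psmb4 also not without library 2. Translation factors (27 of 38) had a median of 0.62, with 4 higher and 4 lower, and 0 higher and 1 lower when either mRNA library was left out. Eif4e, the cap-binding factor, had 772, 279 and 280 FPKM in footprints and 55.8 and 78.1 FPKM in mRNA (log2 difference 2.55, SE 0.56, adjusted p = 0.0395). Eif3e, of the initiation factor that joins the small subunit, had 4.44, 0 and 0 FPKM in footprints and 105 and 120 FPKM in mRNA (log2 difference -6.01, SE 0.95, adjusted p = 0.0187). Eif3m, of the same factor, was lower at -3.63 (SE 0.55, 3 of 5), and Eif5, which triggers GTP hydrolysis at the start codon, at -3.78 (SE 0.79, 3 of 5). Eif6, which keeps ribosomal subunits apart, was higher at 2.44 (SE 0.39, 3 of 5), and Eif4g2, a cap-independent scaffold, at 1.66 (SE 0.32, 1 of 5). Eif5b, which joins the subunits, was higher at 2.90, and Etf1, the release factor gene, was listed at 0 in all footprint libraries beside 22.0 and 12.5 FPKM in mRNA. Eif4e, Eif5b and Eif3e did not pass when either mRNA library was left out, Eif4e also not without footprint library 3 and Eif5b not without library 1.

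Zfp genes, mostly zinc finger transcription factors (101 of 394), had a median of -0.52, with 5 higher and 7 lower. When either mRNA library was left out, most higher calls were lost. The lower calls that remained were of genes listed at 0 in all 3 footprint libraries, whose spread is 0 in such a fit. When each assay had to average 1 FPKM, 5 were higher and 0 lower. Zfp513 had 274, 458 and 246 FPKM in footprints and 39.5 and 18.6 FPKM in mRNA (log2 difference 3.48, SE 0.49, adjusted p = 0.0171), and Zfp69 had 1.62, 0 and 0 FPKM in footprints and 18.9 and 18.5 FPKM in mRNA (log2 difference -3.84, SE 0.68, adjusted p = 0.0225). Zfp207, which encodes the kinetochore protein BuGZ, had 326, 329 and 349 FPKM in footprints and 99.3 and 75.1 FPKM in mRNA (log2 difference 1.94, SE 0.28, 4 of 5). Zfp654 had 84.2, 84.5 and 85.8 FPKM in footprints and 15.1 and 11.1 FPKM in mRNA (log2 difference 2.62, SE 0.34) and passed whichever library was left out. Zfp513 and Zfp69 did not pass when either mRNA library was left out, and Zfp69 not without footprint library 3.

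Values that the ranking did not use were then set beside it. Footprints of single wild-type oocytes come from a separately deposited table and were not tested across tables; each stage counts as 1 sample. Mean Het footprints ranked genes much like single MII oocytes (rho 0.905 across 5174 genes) and less like single FGO (rho 0.389). Median footprints of single MII oocytes were 1.80 FPKM in the lowest decile of the ranking, 7.77 FPKM in the fifth and 53.9 FPKM in the highest. Those of single FGO lay between 3.86 and 7.37 FPKM in the first 9 deciles and at 12.3 FPKM in the highest. Footprints were higher in MII than in FGO for 18.9% of genes in the lowest decile, 54.2% in the fifth and 80.9% in the highest. The log2 ratio of single MII to single FGO had a rho of 0.50 with the Het ratio. Both ratios have MII footprints as numerator, so the rise over the deciles is partly set by the ranking and is no separate support.

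Genes from both ends of the ranking show the spread between single oocytes. Smco4 averaged 2575 ± 1624 FPKM in single MII oocytes and 96.7 ± 301 FPKM in single FGO (mean ± SD between oocytes, 20 and 18 oocytes), and was above 0 in all 20 MII oocytes and in 6 of 18 FGO. Lin28a averaged 115 ± 61.4 FPKM in MII and 7.64 ± 10.7 FPKM in FGO, and Bpgm 6950 ± 3249 FPKM in MII and 1290 ± 991 FPKM in FGO. Hist1h4c averaged 1294 ± 550 FPKM in MII and 1073 ± 666 FPKM in FGO. Bmp15 averaged 104 ± 133 FPKM in MII and 603 ± 558 FPKM in FGO. The ranges of single oocytes overlapped between the stages for Lin28a, Bpgm, Hist1h4c and Bmp15. Ndufa10 was above 0 in 3 of 20 MII oocytes and in 16 of 18 FGO. Of the 299 silent genes, 250 had a higher mean in single FGO than in single MII oocytes (83.6%), against 2067 of the other 4875 genes (42.4%). These genes were chosen for low Het MII footprints, which ranked genes much like single MII oocytes, so a low MII mean is partly set by the choice.

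**Figure D4:**
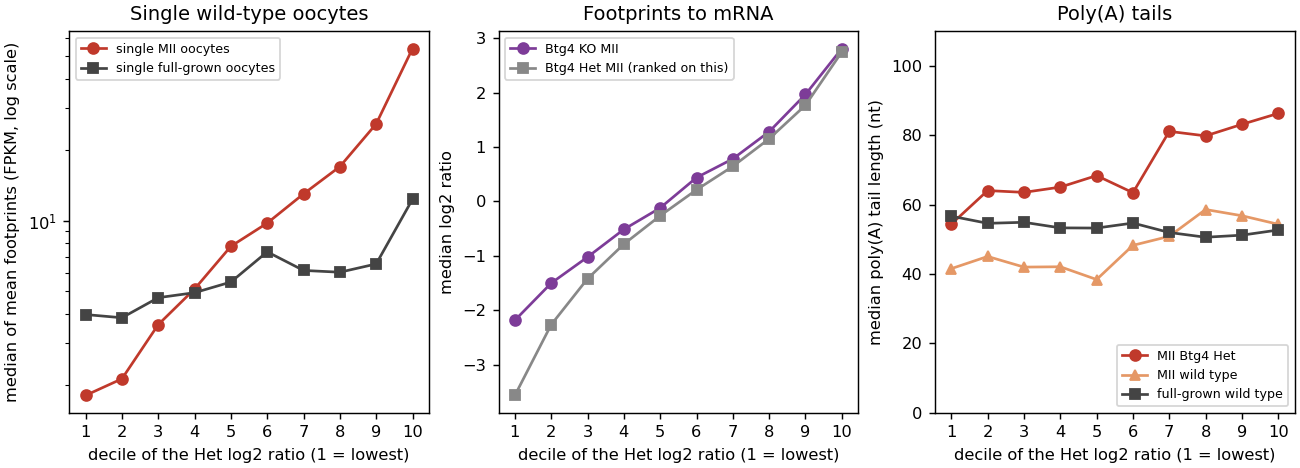
Values by decile of the Het log2 ratio, 1 being the lowest. Left: median over genes of mean footprints in single wild-type MII (circles) and full-grown oocytes (squares), FPKM on a log scale. Middle: median log2 ratio of footprints to mRNA in Btg4 KO (circles) and in Het (squares), on which genes were ranked. Right: median poly(A) tail length in nt in Het MII, wild-type MII and wild-type full-grown oocytes. Footprints of single MII oocytes, KO ratios and Het MII tails are higher at the right end than at the left, and full-grown tails are nearly level at 50.6 to 56.7 nt.

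Btg4 KO oocytes, which share no library with Het, gave a similar ranking. Their log2 ratio of footprints to mRNA had a rho of 0.70 with that of Het, and its median was higher in each decile than in the one before, -2.19 in the lowest and 2.81 in the highest. It was 8.21 for Hist1h4c, 9.84 for Smco4, 3.61 for Plat and 2.71 for Tcl1, and -5.84 for Ndufa10, -5.71 for Fbxo5 and -1.86 for Bmp15. For Zbed3 it was -0.58 and for Btg4 -1.02. Other genes that passed in Het lay near 0 or on the other side in KO. The KO ratio was 1.61 for Ccnb3, 0.65 for Ehmt1, -0.41 for Eif3e, -0.17 for Etf1, -0.61 for Srp19, 0.05 for Mrps17 and -1.17 for Uchl1. Of the silent genes 177 had a mean of at least 1 FPKM in KO footprints.

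Poly(A) tails of Het MII oocytes were longer on ribosome-rich messages. Tail lengths, 1 library per genotype and stage, were given for 571 of the 5174 genes in Het MII, and these were abundant messages (median mRNA 105 FPKM, against 17.3 FPKM for genes without a value). The median tail was 54.4 nt in the lowest decile (29 genes) and 86.3 nt in the highest (90 genes). In genes with more footprints than mRNA it was 92.6 nt (116 genes, quartiles 71.8 and 117 nt). In genes with fewer footprints it was 60.4 nt (38 genes, quartiles 43.05 and 86.7 nt), and in genes that did not pass 70.4 nt (417 genes). The spread within each class was wider than the difference between their medians. Across genes the rho was 0.26, and 0.10, 0.27 and 0.44 in the genes of low, middle and high mRNA level (191, 190 and 190 genes), a split made after the values were seen. In wild-type MII oocytes it was 0.22 (222 genes).

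Over the larger set of genes with a value in FGO, tails showed no such order. They were given for 4097 genes, with medians of 56.7 nt in the lowest decile and 52.7 nt in the highest. The rho was -0.10. It was not computed on only the genes with a Het MII tail, which were fewer and were abundant messages. The contrast with Het MII therefore does not separate stage from the set of genes. Between Het MII and wild-type FGO both genotype and stage differ, so the wild-type MII value is given between them. Tcl1 had a tail of 185 nt in Het MII, 103 nt in wild-type MII and 41.7 nt in FGO. Bub1b had 104, 58.1 and 42.7 nt in the same order, Bpgm 142, 119 and 55.8 nt, and H1foo 151, 172 and 60.1 nt. Plat had 93.7 nt in Het MII and 33.9 nt in FGO. Bmp15 had 33.8 nt in Het MII, 31.2 nt in wild-type MII and 64.1 nt in FGO. Of the silent genes 4 had a tail value in Het MII.

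The level of mRNA did not order the ranking. The median mRNA of the deciles lay between 14.9 and 23.3 FPKM, and the rho of ratio and mRNA was 0.05. The 100 genes just above the minimum (up to 5.26 FPKM) had a median ratio of -0.14 and the 100 just under it (down to 4.74 FPKM) one of -0.09. Outside the ranking, 120 genes under the mRNA minimum had mean footprints of 50 FPKM or more.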

How the data were processed

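Footprints and mRNA of Btg4 Het MII oocytes were deposited by the authors as FPKM per gene, with 3 and 2 libraries. Footprints came from nuclease-digested lysates pelleted through sucrose, and mRNA from Smart-seq2 libraries, per the labels' protocols. Trim Galore 0.4.2, cutadapt 1.14, Bowtie2 2.2.2, STAR 2.5.3a and Cufflinks 2.2.1 are named in the submitters' processing notes, with builds mm9 and hg19. The labels used here give no roles for them, no rule for reads that map to several places and no range of footprint lengths. Poly(A) tail lengths were deposited by the authors in nt per gene, 0 meaning no value, from full-length cDNA per the labels' protocols.

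After 231 exact repeat rows were dropped, 20756 genes remained. The log2 ratio is that of mean footprints + 1 to mean mRNA + 1. For the test, limma 3.58.1 (R 4.3.3, eBayes with a mean-variance trend) was fitted to log2(FPKM + 1) of the 8477 genes whose 5 libraries averaged 1 FPKM or more. It set footprints against mRNA, two-sided, and p-values were adjusted over these genes by Benjamini-Hochberg. Each adjusted p in the text is its. Its log2 difference averages logs and so can differ from the log2 ratio, and it understates differences of low genes. The fit uses 1 variance per gene for both assays. FPKM keep no read counts, so no count model was used. The value of 1 read was recovered from steps between low values (tolerance 0.03 reads, below 12 reads) for 8093 genes.

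Members, gene lists and tests were chosen with earlier results of these data known. Named genes are the 12 highest and 12 lowest called ratios, the 10 highest in mRNA and in footprints, Btg4, the 2 highest and 2 lowest of each list, 8 silent genes and the oocyte markers, of which some are given only in ranges. A gene that the rule selects is not reported here. The list of noncoding RNAs had no gene at the minimum, mitochondrially encoded genes were not used here, and 2-cell genes (2 at the minimum, 1 higher), follicle markers (2) and blood markers (1) were too few to describe. Starts of transcripts came from RefSeq for GRCm38.p6, matched by symbol for 4233 of the 5174 genes; their coordinates belong to that build and not to the authors'. Python 3.11.15, pandas 2.3.3, numpy 2.4.6 and matplotlib 3.10.9 were used.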

Additional observations from a re-analysis of the deposited data

How the results depend on the processing

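Of 5174 genes, 582 were higher and 543 lower in footprints. The higher count moved to 320 with quantile normalization, 356 with a minimum mRNA of 20 FPKM, and 0 with a replicate block. The lower count moved to 128 when each assay had to average 1 FPKM or more, which removes genes without footprints, to 872 in a fit of all 10 libraries, to 249 with a minimum mRNA of 20 FPKM, and to 0 with a replicate block. The block leaves 1 residual degree of freedom, and 1696 genes had an unadjusted p under 0.05 in it. Labels name nothing shared by equal numbers, and deviations of libraries 1 and 2 correlated at -0.155 between the assays, so the numbers were not read as pairs. With 1 library left out the higher count ranged from 45 to 581 and the lower count from 249 to 797. Leaving out 1 mRNA library leaves a lone one, assumed to vary like the footprint libraries. The other alternatives kept both counts within 1.5 times. Of the named genes 63 passed. Of these, 51 also passed with a pseudocount of 0.1, all 63 with a pseudocount of 5, 51 without a filter, 48 with quantile normalization, 61 with median scaling, 22 without mRNA library 1 and 20 without mRNA library 2. None changed direction under any alternative run. As the libraries of genes that passed did not overlap between the assays, only quantile normalization and median scaling could have reversed one. Quantile normalization put the median difference of the 8477 tested genes at 0.13, against -0.04 without it, and that of the 5174 ranked genes at -0.65, against -0.36. The rho between footprints and mRNA was 0.577 to 0.618 with 1 library left out and 0.581 with the higher minimum. Silent genes numbered 299, and 58 with a minimum mRNA of 20 FPKM, 416 under 2 FPKM and 266 under 0.5 FPKM. With 1 library left out, an alternative chosen after seeing the data, they numbered 268 to 706. Library 1 sets the limit of detection: at lower depth more genes would be listed at 0.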
